A study of Mus musculus with 12 samples.

Results

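Pi16 and Dpp4 are genes that mark the adventitial fibroblasts of mouse skin and other tissues, and the pair was picked by symbol from the deposited tables, where it makes up 2 of 7902 genes. Col3a1, a fibrillar collagen chain made by fibroblasts of the whole dermis, was measured beside them. RNA from mouse skin was sequenced in 12 bulk libraries that fall into 3 groups of 4. M+NSPCC1 skin had the ageing model, made with D-galactose and ultraviolet A and B light, together with NSPCC1, a grape seed extract; Model skin had the same ageing model alone; and Ctrl skin was the control. Mouse strain, age, sex, body site, doses, times and the vehicle of the extract were not stated in the labels. Nothing in them says that the 4 libraries of a group are from different mice, and p-values here rest on the spread between libraries, which may be in part technical.

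Pi16 encodes peptidase inhibitor 16, a protein of the CAP superfamily that is secreted or held at the cell surface. In the mouse heart it is known to limit the processing of the chemoattractant chemerin by cathepsin K. Dpp4 encodes dipeptidyl peptidase 4 (CD26), a membrane-bound serine peptidase that removes dipeptides from the amino end of chemokines and peptide hormones and that is also found on T cells. In mouse tissues, fibroblasts carrying both proteins sit around vessels and in the deep connective tissue, and they are known as a reservoir from which more specialised fibroblasts and fat cell precursors arise. Dpp4 also marks the embryonic lineage of the upper dermis, so in whole skin it is the less specific of the 2 genes. In such bulk samples, fewer cells of a type and less RNA per cell cannot be told apart.

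Pi16 (gene ID 74116) lies at chr17:29318796-29328903 and Dpp4 (gene ID 13482) at chr2:62330073-62412315 in mm10, with Dpp4 on the minus strand, and Col3a1 (gene ID 12825) lies at chr1:45311538-45349706. Because both genes were lower in the same 8 libraries, the bases just outside each gene's annotated span are shown, taken from RefSeq promoter windows of GRCm38.p6 (both members matched). Each window is built on a start site that lies inside the span, 86 bases from its edge for Pi16 (chr17, 29318882) and 84 bases for Dpp4 (chr2, 62412231), and the window's bases inside the span are not shown. Capitals mark matches to the motifs searched.
Pi16 chr17:29318632-29318795, plus strand: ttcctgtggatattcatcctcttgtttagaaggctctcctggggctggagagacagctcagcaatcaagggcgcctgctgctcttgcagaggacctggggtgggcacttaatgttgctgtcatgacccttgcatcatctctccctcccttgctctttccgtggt
Dpp4 chr2:62412316-62412481, minus strand: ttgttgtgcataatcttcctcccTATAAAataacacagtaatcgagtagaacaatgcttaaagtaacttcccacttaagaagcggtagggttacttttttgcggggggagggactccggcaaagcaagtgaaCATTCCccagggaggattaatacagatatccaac

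The TATA motif TATAAA, the CCAAT box motif, the GC box motif GGGCGG, the AP-1 motif TGANTCA, the E-box motif CACGTG and the TEAD motif GGAATG were searched on both strands of each window of 300 bases, which runs from 250 bases before to 50 bases after that start site. The Dpp4 window held TATAAA at -227 and, on the opposite strand, GGAATG (read as CATTCC on the strand shown) at -118, counted from the window's start site and not from the end of the stretch shown. TATAAA was present in 13.6% and GGAATG in 14.7% of 32851 mouse windows of this length, and the Col3a1 window held both. The Pi16 window held only CCAAT, at -64 from its start site, which is inside the gene's span and outside the stretch shown, a motif found in 37.4% of windows. No motif was shared by the Pi16 and Dpp4 windows, and the GC box, AP-1 and E-box motifs, present in 35.7%, 7.81% and 7.15% of windows, had no match in either. A match is a description of letters and says nothing of binding.

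Summed over the deposited genes, which are a selection and not the whole library, estimated counts ran from 9717338 to 10952623. Most tested genes differed from Ctrl, so such a difference is the usual state in these tables. Model libraries also varied more among themselves than the others, with a median SD of log2 CPM (counts scaled to a common library size) of 0.145 in M+NSPCC1, 0.242 in Model and 0.147 in Ctrl. Hair shaft and follicle genes stood apart, with a summed level of 10310 to 19230 FPKM in M+NSPCC1 and 13980 to 23890 FPKM in Model libraries, against 4.68 to 93.65 FPKM in Ctrl. FPKM scales fragments by transcript length and by library depth, and it is used below wherever levels of different genes are set side by side.

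Pi16 was far lower in M+NSPCC1 and Model skin than in Ctrl skin. Its level was 122.4, 102.3, 82.98 and 72.05 FPKM in M+NSPCC1 libraries 1 to 4, against 73.1, 30.83, 100.2 and 58.52 FPKM in Model libraries and 240.1, 265.0, 256.8 and 255.4 FPKM in Ctrl libraries. Every Ctrl library lay above every other library, and the M+NSPCC1 and Model libraries overlapped, with M+NSPCC1 1 and 2 above the highest Model library and Model 2 the lowest of all. Means were 94.9 ± 22.2 FPKM in M+NSPCC1, 65.7 ± 28.9 FPKM in Model and 254 ± 10.4 FPKM in Ctrl (SD, n = 4 each). The highest library was 1.70 times the lowest in M+NSPCC1, 3.25 times in Model and 1.10 times in Ctrl. Pi16 was thus nearly uniform in control skin and uneven in Model skin.

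Dpp4 was also lower in both groups with the ageing model, and its spread fell in other libraries than that of Pi16. It measured 7.55, 13.29, 13.96 and 10.9 FPKM in M+NSPCC1 libraries 1 to 4, against 11.72, 12, 10.9 and 11.89 FPKM in Model libraries and 26.23, 24.7, 30.43 and 24.74 FPKM in Ctrl libraries. Every M+NSPCC1 and Model library was below the lowest Ctrl library, and the 4 Model libraries fell inside the range of the M+NSPCC1 libraries. Means were 11.4 ± 2.90 FPKM in M+NSPCC1, 11.6 ± 0.499 FPKM in Model and 26.5 ± 2.70 FPKM in Ctrl (SD, n = 4 each). Here the Model libraries were the most even, with the highest 1.10 times the lowest, and the M+NSPCC1 libraries the least even, at 1.85 times, because of the low value of M+NSPCC1 1. The library with the least Dpp4 was thus the M+NSPCC1 library with the most Pi16.

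Col3a1 measured 532.2, 533.7, 522.2 and 426.0 FPKM in M+NSPCC1 libraries 1 to 4, against 381.8, 286.8, 690.8 and 521.9 FPKM in Model libraries and 755.1, 753.8, 857.9 and 669.8 FPKM in Ctrl libraries. Model 3 exceeded Ctrl 4, so the Model and Ctrl groups overlapped for the collagen on the FPKM scale (they did not on the CPM scale), unlike for Pi16 and Dpp4. In all 12 libraries the order of levels per length was Col3a1, then Pi16, then Dpp4. Pi16 came as 3 transcripts in the tables, and its main one carried 92.9% to 94.1% of the gene's FPKM in M+NSPCC1, 90.9% to 94.4% in Model and 90.6% to 94.8% in Ctrl, close shares in the 3 groups. Dpp4 and Col3a1 each came as 1 transcript. The annotation places an antisense gene over Pi16 and another over Dpp4, and since nothing says whether counting used strand, reads of a gene and of its antisense partner cannot be told apart.

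**Figure D1:**
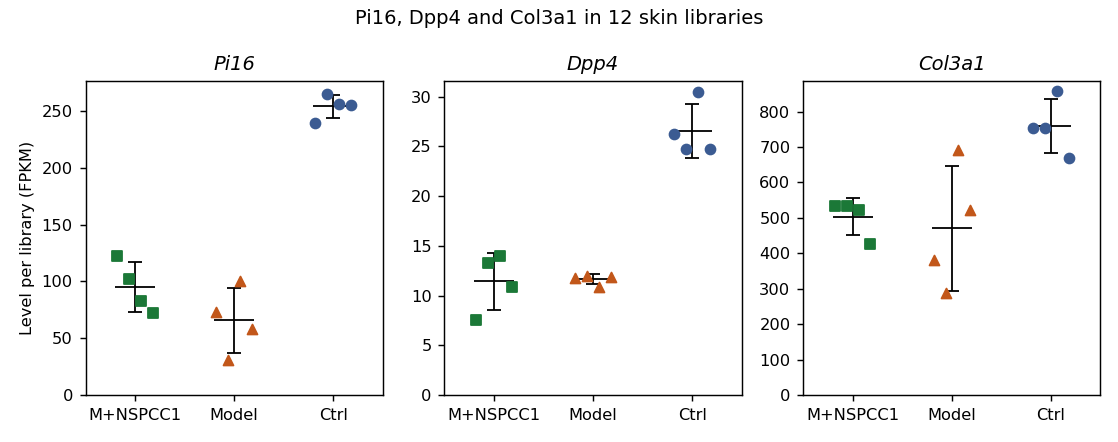
Level per library (FPKM, linear axis from 0) of Pi16, Dpp4 and Col3a1 in M+NSPCC1, Model and Ctrl skin; points are the 4 libraries of a group, and bars give the mean and SD. Ctrl lies above both other groups for Pi16 (254 ± 10.4 FPKM) and Dpp4 (26.5 ± 2.70 FPKM), whereas for Col3a1 1 Model library reaches into the Ctrl range.

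The comparison of Model with Ctrl skin asks how these genes differed between skin with the ageing model and control skin. Body site and times were not stated, so a difference cannot be credited to the ageing model alone. In Model skin Pi16 stood at 22.95%, Dpp4 at 38.77% and Col3a1 at 55.06% of the Ctrl level. Pi16 changed by -2.12 on the log2 scale (SE 0.30, 95% interval -2.78 to -1.46). Its p, adjusted by the Benjamini-Hochberg method over 7638 genes in the quasi-likelihood test of edgeR, was 5.02e-05. For Dpp4 the log2 fold change was -1.37 (SE 0.16, 95% interval -1.71 to -1.02; adjusted p = 1.07e-05 by the same edgeR test), and for Col3a1 -0.86 (SE 0.24; adjusted p = 0.00471). Both members passed the test as lower and neither overlapped Ctrl, against a background of 90.5% of tested genes called in either direction, 41.4% called lower and 39.8% lower without overlap. The median over all tested genes was 0.255 on the log2 scale with the scaling used here, 0.083 when DESeq2's size factors were used and 0.432 with whole-library depth. Relative to that median, Pi16 stood at -2.38 and Dpp4 at -1.62, and under the other scalings at -2.37 and -2.39 for Pi16 and at -1.62 in both for Dpp4. A change of scaling moves all genes and their median by nearly the same amount, so this near equality is no check on the falls.

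The comparison of M+NSPCC1 with Model skin asks whether the extract altered the genes in aged skin. For neither gene was a difference beyond the spread of the libraries detected. The log2 fold change of Pi16 was 0.49 (SE 0.29, 95% interval -0.14 to 1.13; edgeR adjusted p = 0.86, unadjusted p = 0.117), an interval that holds a slight fall and a large rise. Without Model 2, which held the least Pi16, the value was 0.26, and without Model 3, which held the most in that group, it was 0.80, and neither passed. Dpp4 differed by -0.07 (SE 0.16, 95% interval -0.41 to 0.28; edgeR adjusted p = 0.992), and by 0.09 without M+NSPCC1 1. The change of Col3a1 was 0.05 (SE 0.23, 95% interval -0.46 to 0.57; adjusted p = 0.995 by edgeR). Of all tested genes, 0% passed with edgeR, with 502 (6.57%) at an unadjusted p under 0.05, and 74 genes passed with DESeq2, neither member among them.

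The comparison of M+NSPCC1 with Ctrl skin uses the same Ctrl libraries as that of Model with Ctrl, so the 2 sets of values are not independent. Pi16 differed by -1.63 on the log2 scale (SE 0.30; edgeR adjusted p = 0.000317) and stood at 32.32% of the Ctrl level. Dpp4 had -1.43 (SE 0.16; adjusted p = 8.49e-06) and stood at 37.06%, and Col3a1 had -0.81 (SE 0.24; adjusted p = 0.00668) and stood at 57.14%. Both members were called lower and neither overlapped Ctrl, where 93.2% of tested genes were called, 43.1% as lower, and 42.5% were lower without overlap.

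Because Col3a1 was also lower, the ratio of each gene to Col3a1 was taken within each library, which compares an adventitial transcript with a collagen transcript of the same piece of skin and does not depend on scaling between libraries. The ratio of Pi16 to Col3a1 was 0.188 ± 0.0315 in M+NSPCC1, 0.139 ± 0.0387 in Model and 0.338 ± 0.0363 in Ctrl libraries (FPKM over FPKM; SD, n = 4 each). It ran from 0.159 to 0.230 in M+NSPCC1 and from 0.108 to 0.192 in Model libraries, against 0.299 to 0.381 in Ctrl, so each group with the ageing model lay wholly below Ctrl. On the log2 scale the ratio differed by -1.31 between Model and Ctrl and by -0.86 between M+NSPCC1 and Ctrl, in each case with an exact two-sided permutation p = 0.0286, the smallest that 4 against 4 libraries can give, and 0.0858 after Benjamini-Hochberg adjustment over the 9 ratio comparisons. Relative to Col3a1, Pi16 was thus lower in each of the 8 libraries with the ageing model than in any Ctrl library, although no ratio passed after adjustment. Col3a1 had the smallest fall of the general fibroblast genes that fell, listed below. In Model against Ctrl it had -0.86, beside a list median of -1.20, and in M+NSPCC1 against Ctrl -0.81, beside -1.165. A low ratio to Col3a1 therefore does not set Pi16 apart from fibroblast genes in general, whose ratios to Col3a1 were not taken. Between M+NSPCC1 and Model the difference was 0.46 (exact permutation p = 0.114, adjusted 0.205), and 0.62 without Model 1 (exact p = 0.0286).

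Set against Col3a1, Dpp4 did not separate the Model from the Ctrl libraries. The ratio of Dpp4 to Col3a1 ran from 0.0142 to 0.0267 in M+NSPCC1 and from 0.0158 to 0.0418 in Model libraries, against 0.0328 to 0.0369 in Ctrl. The Model range enclosed the Ctrl range, because Model 2, with the least collagen, had the highest ratio of all libraries and Model 3, with the most collagen of its group, had one of the lowest. The log2 difference was -0.42 for Model against Ctrl (exact permutation p = 0.286, adjusted 0.368), and -0.64 without Model 2 (exact p = 0.0286). For M+NSPCC1 against Ctrl it was -0.65 (exact permutation p = 0.0286, adjusted 0.0858; p = 0.0571 without Ctrl 4), and for M+NSPCC1 against Model -0.23 (exact permutation p = 0.543, adjusted 0.6).

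The 2 marker genes did not keep a fixed proportion to each other either. Pi16 was 5.94 to 16.2 times Dpp4 per length in M+NSPCC1 and 2.57 to 9.19 times in Model libraries, against 8.44 to 10.7 times in Ctrl. The log2 ratio differed by -0.90 between Model and Ctrl (exact permutation p = 0.0571, adjusted 0.128; -1.17 and exact p = 0.0286 without Model 3). It differed by 0.69 between M+NSPCC1 and Model (exact p = 0.257, adjusted 0.368) and by -0.21 between M+NSPCC1 and Ctrl (exact p = 0.6, adjusted 0.6; -0.52 and exact p = 0.0286 without M+NSPCC1 1).

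**Figure D2:**
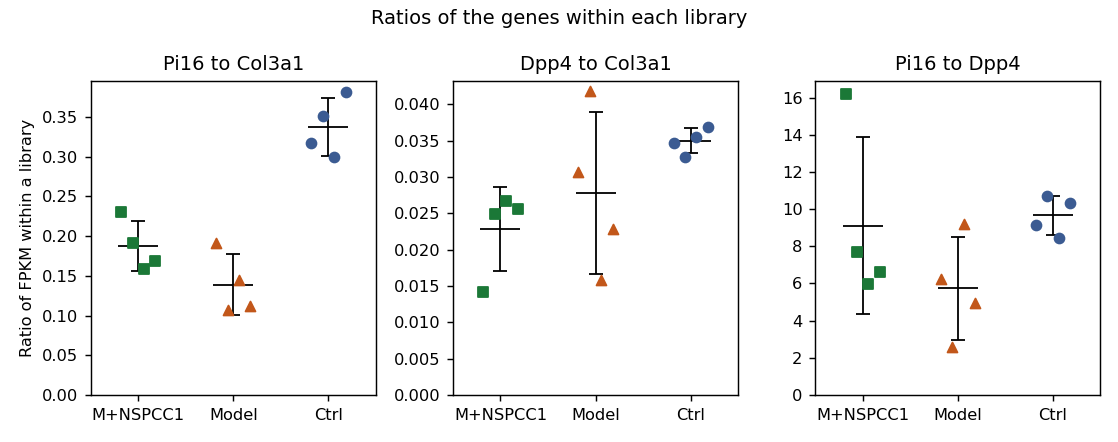
Ratio of FPKM within each library for Pi16 to Col3a1, Dpp4 to Col3a1 and Pi16 to Dpp4, in M+NSPCC1, Model and Ctrl skin; points are libraries, bars give the mean and SD, and each axis starts at 0. The ratio of Pi16 to Col3a1 is at most 0.230 in the 8 libraries with the ageing model and at least 0.299 in the 4 Ctrl libraries, while the Model range of the ratio of Dpp4 to Col3a1 encloses the Ctrl range.

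Among the 8 libraries outside Ctrl, a relation looked at after their values had been seen, Pi16 tended to be higher where Col3a1 was higher. On log2 FPKM, Pearson's r was 0.81 (exact permutation p = 0.0195, adjusted 0.0585 over 3 relations) and Spearman's rho 0.81 (exact permutation p = 0.0218, adjusted 0.0654). Leaving out Model 1 and Model 2, the libraries farthest from the median Col3a1, r was 0.43, so the value over 8 libraries depends in part on that pair. Within the groups r was 0.78 over the 4 M+NSPCC1 libraries and 0.85 over the 4 Model libraries, too few for a test. For Dpp4 with Col3a1 no relation was detected (r = -0.14, exact permutation p = 0.696; rho = -0.13, exact permutation p = 0.761; r = -0.035 without the same libraries). For Pi16 with Dpp4, r was -0.36 (exact permutation p = 0.318) and rho -0.25 (exact permutation p = 0.55), and r was -0.01 without M+NSPCC1 1 and M+NSPCC1 3. After adjustment over the 3 relations, p was 0.696 and 0.761 for Dpp4 with Col3a1 and 0.477 and 0.761 for Pi16 with Dpp4. Within the groups, r of Dpp4 with Col3a1 was 0.006 over the M+NSPCC1 and -0.80 over the Model libraries. That of Pi16 with Dpp4 was -0.565 and -0.81, again over too few libraries for a test.

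**Figure D3:**
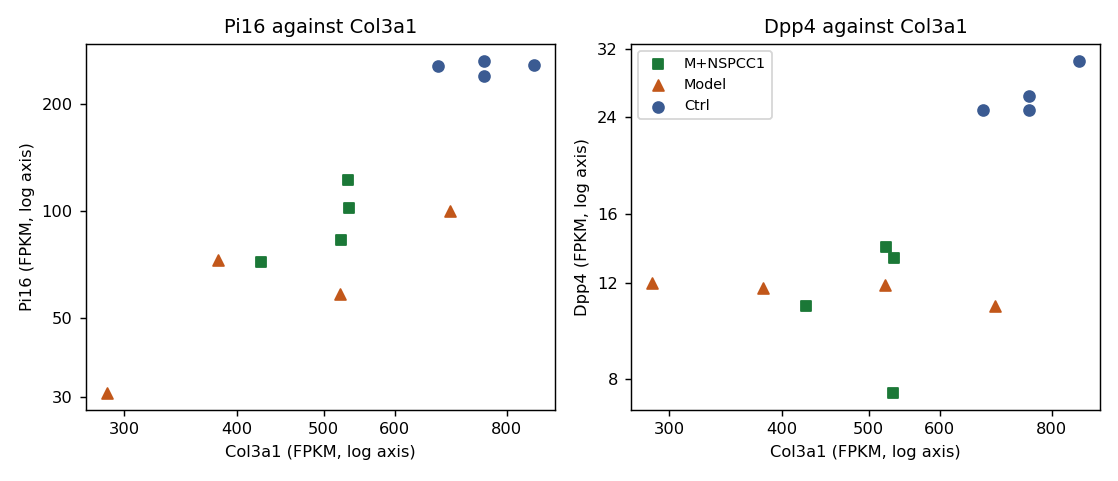
Pi16 (left) and Dpp4 (right) against Col3a1 in each of the 12 libraries, in FPKM on log axes; squares are M+NSPCC1, triangles Model and circles Ctrl. Among the squares and triangles Pi16 tends to be higher where Col3a1 is higher (exact permutation p = 0.0195, adjusted 0.0585), with Model 2 lowest on both axes. Dpp4 in these libraries stays between 7.55 and 13.96 FPKM over the whole range of Col3a1.

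The genes whose pattern was most like that of each member differed between Pi16 and Dpp4. Likeness was Pearson's r of log2 CPM with 6275 genes that averaged at least 10 CPM, a description in which points share library, depth and the large step between Ctrl and the other groups. Over the 12 libraries the genes nearest to Pi16 were Fstl1 (r = 0.993), Lgi4 (0.991), Sgca (0.991), Tmem47 (0.990) and Tspan8 (0.990), and 1548 genes reached 0.9. Those nearest to Dpp4 were Sc5d (r = 0.990), Slc25a35 (0.975), Cog4 (0.974), Akr1b3 (0.974) and Coa3 (0.972), and 659 genes reached 0.9. Col3a1 ranked 1102 by likeness to Pi16 (r = 0.925) and 2292 by likeness to Dpp4 (r = 0.754). Dpp4 ranked 2270 by likeness to Pi16, and Pi16 ranked 2069 by likeness to Dpp4 (r = 0.798).

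Taking away the group means leaves only how libraries of the same group differ. On these 12 deviations Pi16 was nearest to Arhgef15 (r = 0.977), Trim47 (0.976), Galnt16 (0.976), Jph2 (0.973) and Ust (0.970), and 156 genes reached 0.9. Col3a1 then stood at r = 0.822 with Pi16, at rank 572. Dpp4 was nearest to Tnfaip8 (r = 0.940), Sc5d (0.902), Pdcl (0.871), Endov (0.870) and Aplp2 (0.860), and 2 genes reached 0.9. Within groups Dpp4 had r = 0.012 with Col3a1 and r = -0.29 with Pi16, so the 2 adventitial markers shared the step between Ctrl and the other groups but not the variation inside a group. The enzyme of cholesterol synthesis Sc5d was among the 5 nearest to Dpp4 on both measures, and it differed by -0.84 between Model and Ctrl on the log2 scale (SE 0.11; edgeR adjusted p = 2.18e-05).

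The other genes of adventitial fibroblasts mostly moved as Pi16 and Dpp4 did. Of 30 listed genes, 25 were in the tables and tested, both members included; 21 of them fell in Model against Ctrl and 4 rose, with a median of -1.69 on the log2 scale beside 0.255 over all tested genes. The background was 41.4% of genes called lower and 49.1% called higher. Such a median was not particular to this list. Those of the fat (-1.704), macrophage (-1.752), endothelial (-1.805), smooth muscle (-2.006), Schwann cell (-2.404) and skeletal muscle (-3.215) lists were lower still. Medians of the general fibroblast (-1.197), T and NK cell (-1.315), epidermal (0.478), papillary (1.948) and hair (9.377) lists were higher. Pi16 lay among the 6 largest falls, after Limch1 (-3.13), the signalling protein Wnt2 (-2.97), the transcription factor Ebf2 (-2.54), Opcml (-2.42) and Tppp3 (-2.31) and just before Clec3b (-2.12), which encodes tetranectin. Dpp4 was among the smaller falls, next to the complement regulator Cd55 (-1.41) and fibronectin, Fn1 (-1.28).

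Surface markers used to sort such cells fell by amounts between those of the members. Log2 fold changes in Model against Ctrl were -1.86 for Cd34, -1.60 for Ly6a, which encodes Sca-1, and -1.52 for Cd248. The matrix genes Fbn1, which encodes fibrillin, and Mfap5, a microfibril protein, had -1.69 and -1.52, and the guidance molecule Sema3c had -1.86. Anxa3 (-1.90), Ackr3 (-1.77), Emilin2 (-1.77), Ly6c1 (-1.60) and Pcsk6 (-1.22) complete the genes that fell. Those that rose were Procr (2.07), the endothelial protein C receptor, the transcription factor Creb5 (1.68), the growth factor Bmp7 (1.54) and Axin2 (1.03), a feedback inhibitor of Wnt signalling. Axin2 had overlapping groups, and its call was lost with DESeq2 (adjusted p = 0.0654), with DESeq2's size factors, in a fit of the 8 libraries alone and without any 1 of 5 libraries (Ctrl 1, 2 or 3, Model 2 or 4). Bmp7 and Axin2 are also expressed in growing hair follicles, whose own markers rose in the same comparison. Any part of follicles in these rises was not tested.

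The summed level of the adventitial list was 1179 to 1626 FPKM in M+NSPCC1 and 928.8 to 1840 FPKM in Model libraries, against 3603 to 3686 FPKM in Ctrl. In M+NSPCC1 against Model none of the 25 genes passed the edgeR test, and 18 had a positive and 7 a negative log2 fold change. The median was 0.10, beside 0.005 over all tested genes. Such a lean was not particular to this list. Positive and negative values numbered 14 and 1 for skeletal muscle, 7 and 0 for Schwann cells, 0 and 10 for macrophages and 1 and 17 for hair genes. The smallest p in the list belonged to Bmp7 (-0.23, adjusted p = 0.486), Creb5 (-0.36, adjusted p = 0.71) and Limch1 (0.56, adjusted p = 0.8), all by edgeR. In M+NSPCC1 against Ctrl, which shares its Ctrl libraries with the first comparison, 21 genes fell and 4 rose (background 43.1% and 50.1%), with a median of -1.51.

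**Figure D4:**
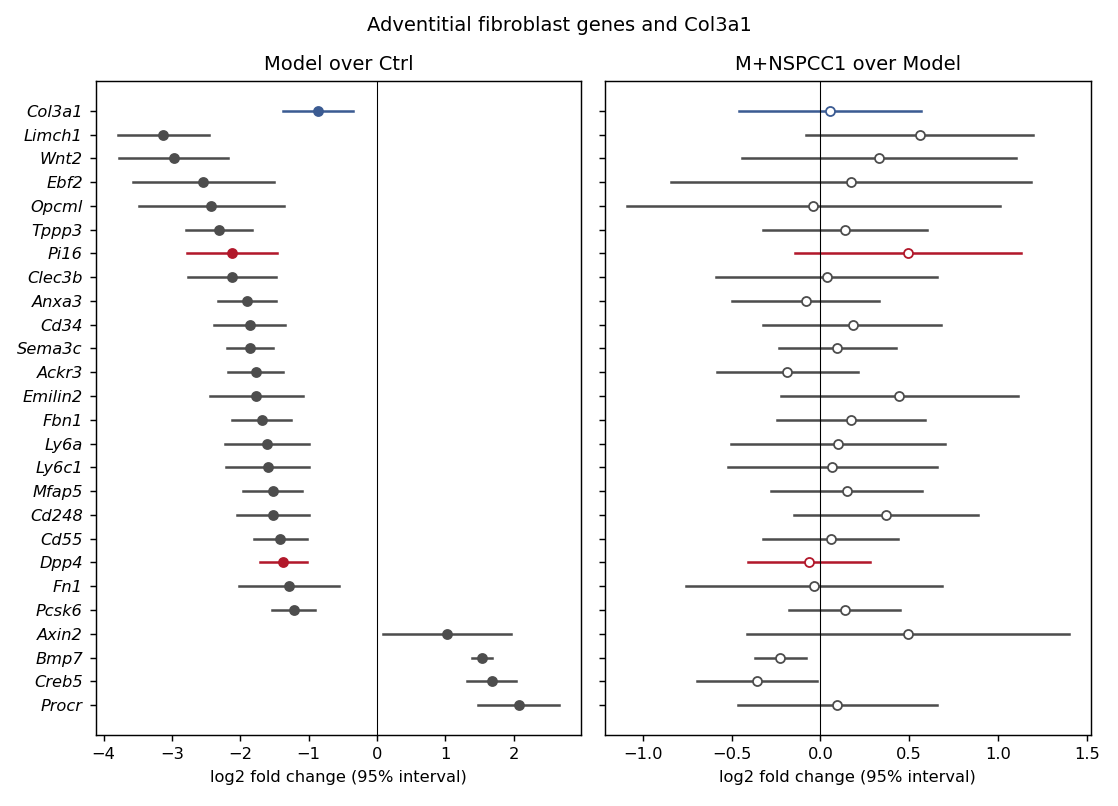
Log2 fold change with 95% interval (edgeR) of Col3a1, in blue, and the 25 adventitial fibroblast genes, with Pi16 and Dpp4 in red, for Model over Ctrl (left) and M+NSPCC1 over Model (right; the axes differ). Filled points passed the test; in Model over Ctrl 21 of the 25 genes lie below 0 and 4 above, and in M+NSPCC1 over Model no point passed.

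Genes made by fibroblasts in general were mostly lower as well. Their median fall was smaller than the fall of Pi16, but Loxl1 and Gsn fell about as far. A difference between Pi16 and this list was not tested. Of 22 listed genes 12 were tested, of which 11 fell in Model against Ctrl, with a median log2 fold change of -1.20, and Postn, a matrix protein of dense dermis, rose by 0.93, where 41.4% of all tested genes were called lower and 49.1% higher. The 6 with the smallest p were Fbln1 (-1.30), Col5a1 (-1.19), Loxl1 (-2.10), Serpinf1 (-1.37), Gsn (-1.92) and Fbln2 (-1.25), so the change of Dpp4 lay within the range of these general markers. The summed level of this list was 2488 to 3297 FPKM in M+NSPCC1 and 1824 to 4392 FPKM in Model libraries, against 5501 to 6527 FPKM in Ctrl. Genes of the papillary dermis and the dermal papilla, where Dpp4 has its embryonic lineage, had 10 tested among 15 listed, of which 7 rose, 2 (Crabp1 and Ntn1) fell and Lepr did not pass, with a median of 1.95 beside 0.255 over all tested genes and a background of 49.1% called higher and 41.4% lower. Their sum was 174.2 to 196.5 FPKM in M+NSPCC1 and 139.0 to 177.6 FPKM in Model libraries, against 76.15 to 95.38 FPKM in Ctrl.

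Dpp4 belongs to a family of prolyl peptidases, of which 5 of 10 listed genes were tested. In Model against Ctrl, Dpp4, Fap, Dpp8 and Prcp fell and Prep rose (background 41.4% lower and 49.1% higher), and the median change was -0.67 on the log2 scale. Fap, the fibroblast activation protein and the closest relative of Dpp4, measured 7.53, 9.73, 10.96 and 10.44 FPKM in M+NSPCC1 libraries 1 to 4, against 7.68, 9.91, 8.79 and 5.96 FPKM in Model libraries and 9.28, 9.8, 13.15 and 8.59 FPKM in Ctrl libraries. The 3 groups overlapped, unlike for Dpp4. Between Model and Ctrl, Fap differed by -0.52 on the log2 scale (SE 0.19; edgeR adjusted p = 0.0225). That call was lost with whole-library depth (adjusted p = 0.0925), with limma in all 3 settings and without Ctrl 3, Model 1 or Model 4. In M+NSPCC1 against Ctrl, Fap had -0.30 (edgeR adjusted p = 0.138; 0.0276 with DESeq2).

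Of the cytosolic members, Dpp8 had -0.67 (SE 0.08) and Prep, prolyl endopeptidase, had 1.48 (SE 0.14), and Prcp, a lysosomal carboxypeptidase, had -0.99 (SE 0.19). In M+NSPCC1 against Model none of the 5 passed.

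The list of binding partners and substrates of DPP4, assembled mostly from work on the human protein, had 8 of 20 genes tested. In Model against Ctrl 7 fell and 1 rose, with a median of -1.59, beside 41.4% of all tested genes called lower and 49.1% called higher. The chemokines that DPP4 cuts, Cxcl12 and Ccl11, had -1.18 and -1.46, and the growth factor Igf1 had -1.73. Of reported partners, the caveolar protein Cav1 had -1.91 and the leukocyte phosphatase Ptprc, which encodes CD45, had -1.74. Cd2, a T cell adhesion molecule, had -2.28 and Fn1, which also stands in the adventitial list, -1.28. Npy, a neuropeptide substrate, rose by 3.64 at a low level, with 7.51 ± 2.11 CPM in M+NSPCC1, 8.68 ± 1.64 CPM in Model and 0.688 ± 0.801 CPM in Ctrl (SD, n = 4 each).

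Pi16 was one of 4 tested genes of the CAP superfamily, out of 13 listed, and by far the most abundant. Besides Pi16, Glipr1 and Glipr2 fell in Model against Ctrl, by 1.31 and 1.06 on the log2 scale (3 of 4 lower, background 41.4%). The call of Glipr1, whose groups overlapped, was lost with whole-library depth (adjusted p = 0.0593), in a fit of 8 libraries and without any 1 of 9 libraries, among them all 4 Ctrl libraries. Crisp1, a secreted CAP protein, was listed at 0 in all 4 Ctrl libraries and reached 5.63 ± 2.44 CPM in M+NSPCC1 and 14.3 ± 4.74 CPM in Model libraries (SD, n = 4 each). Of the chemerin genes, 3 of 6 were tested. Rarres2, which encodes chemerin itself, measured 141.0 ± 34.0 FPKM in M+NSPCC1 and 148.5 ± 87.3 FPKM in Model, against 476.4 ± 88.9 FPKM in Ctrl (SD, n = 4 each), and differed by -1.88 between Model and Ctrl on the log2 scale (SE 0.37; edgeR adjusted p = 0.000532). The receptor gene Ccrl2 fell by 2.31 with at most 2.45 FPKM in any library, and Gpr1, near the detection limit, did not pass (adjusted p = 0.153 by edgeR; passed with limma and without Model 2).

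Among regulators that steer these fibroblasts towards fat or scar, of 13 tested among 24 listed, 5 rose (Wnt5a, Wnt10b, Smad7, Lrrc15 and Sfrp1), 7 fell and Cebpb did not pass in Model against Ctrl, with a median log2 fold change of -0.57. Over all tested genes 49.1% were called higher and 41.4% lower, with a median of 0.255. A difference between this short list and all tested genes was not tested. The 6 with the smallest p were Wnt5a (2.26), Smad7 (1.46), an inhibitor of transforming growth factor beta signalling, Lrrc15 (5.70), Sfrp4 (-2.47), Pparg (-1.58), the master regulator of fat cells, and Tgfbr2 (-1.52). None of the 13 passed in M+NSPCC1 against Model.

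Markers of immune and endothelial cells mostly moved with Pi16 and Dpp4, and their part in the result was not tested. The counts below stand beside a background of 41.4% of all tested genes called lower and 49.1% called higher in Model against Ctrl. T and NK cells, which also carry DPP4, had 3 of 14 listed genes tested. Cd3e (-1.31) and Cd3g (-1.63) fell in Model against Ctrl. Lck went the other way by a larger amount (6.33), with no overlap between these groups. The summed level of this list was 6.63 to 10.52 FPKM in M+NSPCC1 and 4.06 to 11.41 FPKM in Model, against 10.24 to 18.49 FPKM in Ctrl. All 10 tested endothelial genes of 13 fell, with sums of 73.48 to 93.21 FPKM in M+NSPCC1 and 48.36 to 127.8 FPKM in Model, against 234.8 to 254.7 FPKM in Ctrl. Macrophage and dendritic cell genes (10 of 12 tested) all fell, with sums of 1107 to 1783 FPKM in M+NSPCC1 and 922.6 to 2718 FPKM in Model, against 4100 to 5528 FPKM in Ctrl. None of these lists had a defining gene at 0 throughout a group.

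Markers of the muscle, fat and nerve of deep skin, where adventitial fibroblasts are plentiful, were also lower. All 15 skeletal muscle genes fell, with sums of 6225 to 9005 FPKM in M+NSPCC1 and 2635 to 8414 FPKM in Model, against 42480 to 44280 FPKM in Ctrl. The 5 tested genes of fat cells and their precursors, of 14 listed, fell, with sums of 101.1 to 127.2 FPKM in M+NSPCC1 and 85.62 to 155.7 FPKM in Model, against 320.8 to 382.2 FPKM in Ctrl. In both lists every M+NSPCC1 and Model library lay below every Ctrl library. Schwann cell genes (7 of 9 tested) fell, with sums of 90.36 to 123.1 FPKM in M+NSPCC1 and 48.33 to 113.5 FPKM in Model, against 434 to 552.2 FPKM in Ctrl. All 5 tested genes of smooth muscle and pericytes, of 9 listed, fell too, with sums of 198.6 to 280.3 FPKM in M+NSPCC1 and 135.5 to 258.8 FPKM in Model, against 743.1 to 887.1 FPKM in Ctrl. Within Model, library 2 had the lowest sum of the muscle, endothelial, adventitial and general fibroblast lists and library 3 the highest, the same ends as for Pi16, whereas Dpp4 was highest in Model 2 and lowest in Model 3. The hair shaft and follicle list had the same ends as Dpp4 in Model and M+NSPCC1, but not in Ctrl. Its sum was highest in Model 2 (23890 FPKM) and lowest in Model 3 (13980 FPKM). Among M+NSPCC1 libraries it was highest in library 3 (19230 FPKM) and lowest in library 1 (10310 FPKM). In Ctrl the ends were reversed. There the sum was highest in Ctrl 2 (93.65 FPKM), which had the least Dpp4 (24.7 FPKM). It was lowest in Ctrl 3 (4.68 FPKM), which had the most Dpp4 (30.43 FPKM). The part of this list in the values of Dpp4 was not tested.

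All 18 hair shaft and follicle genes rose, and of 5 tested epidermal genes (10 listed) Krt5, Flg and Trp63 rose and Krt10 and Krt77 fell; genes named in such counts of 5 or fewer, Cd3e included, were named after their values were seen. None of the genes of these marker lists passed in M+NSPCC1 against Model, so for cell markers as for Pi16 and Dpp4 no difference between those groups was detected by edgeR.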

How the data were processed

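Total RNA of mouse skin was extracted with TRIzol and made into messenger RNA libraries, per the labels' protocols. Per transcript, the authors deposited 1 table of estimated counts and 1 of FPKM for every library. The build mm10 and the tools RSEM 1.3.1, HISAT2 2.2.1 and DESeq2 1.34.0 come, without their roles, from the submitters' processing notes. The 10720 transcripts of 7902 genes are a selection, whose rule was not stated. The estimated counts of a gene were summed and rounded (69.5% of genes had a sum that was not whole, with a tolerance of 0.011 per transcript), and 14 symbols that a spreadsheet had turned into dates were restored from gene IDs. The single Dpp4 transcript had counts that were not whole, as when reads are shared with transcripts not analysed here. Relative depth of the whole libraries, from count over FPKM, ran from 0.967 to 1.031.

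All 12 libraries were fitted in 1 model with edgeR 4.0.16 in R 4.3.3 (quasi-likelihood, TMM, default expression filter, 7638 genes, no covariate), at an adjusted p under 0.05. Pi16, Dpp4 and Col3a1 all passed the filter. Log2 fold changes above 0 mean more RNA in the first-named group. Ratios within a library used FPKM with 0.1 added for the log2 difference and exact permutation. Alternatives used DESeq2 1.42.0 and its size factors, limma 3.58.1 on log2(FPKM + 1) or log2(FPKM + 0.1), other filters, 8 libraries, whole-library depth, replicate number as a block and each library left out. Replicate numbers did not pair the libraries (correlations of deviations from -0.162 to 0.119). Of these steps only the edgeR fit was tested on simulated data, in which far fewer genes changed than in the comparisons with Ctrl. The members, the gene lists, the comparator and the genes named by smallest p were chosen with earlier results of these data known. Named were all tested genes of the adventitial, peptidase, DPP4, CAP and chemerin lists, the 6 or fewer with the smallest p of other lists, and the 5 most alike to each member. Protein sequences are not used here.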

Additional observations from a re-analysis of the deposited data

How the results depend on the processing

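Pi16, Dpp4 and Col3a1 kept their direction and their side of the threshold under all 10 alternatives other than leaving out a library, in all 3 comparisons. The log2 fold change in Model against Ctrl ran from -2.29 to -1.95 for Pi16, from -1.54 to -1.12 for Dpp4 and from -1.02 to -0.69 for Col3a1. With single libraries left out it ran from -2.43 to -1.85 for Pi16 and from -1.40 to -1.29 for Dpp4 in Model against Ctrl, and in M+NSPCC1 against Ctrl from -1.78 to -1.51 and from -1.54 to -1.28. In M+NSPCC1 against Model these ranges were 0.26 to 0.80 for Pi16, -0.17 to 0.086 for Dpp4 (above 0 without M+NSPCC1 1) and -0.12 to 0.33 for Col3a1 (-0.04 without Model 1 and -0.12 without Model 2), and none passed.

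The count of genes called in M+NSPCC1 against Model was 0 in the main fit, 74 with DESeq2, 2 with only the 8 libraries compared, 2 with limma on log2(FPKM + 1) without a filter and 0 to 4 with single libraries left out (2 without Model 3, 4 without M+NSPCC1 1). The cause was not tested.

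With the replicate number as a block, Pi16 had -2.19 in Model against Ctrl and 0.55 in M+NSPCC1 against Model, Dpp4 had -1.36 and -0.09, and no call of a member changed. The log2 ratios of Pi16 to Col3a1 were then -1.31 in Model against Ctrl and -0.86 in M+NSPCC1 against Ctrl, and that of Dpp4 to Col3a1 -0.65 in M+NSPCC1 against Ctrl, each with an exact p = 0.125, the smallest that 4 pairs allow.

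With single libraries left out, the log2 ratio of Pi16 to Col3a1 in M+NSPCC1 against Model ran from 0.35 to 0.62. That of Dpp4 to Col3a1 ran from -0.64 to -0.18 in Model against Ctrl and from -0.74 to -0.44 in M+NSPCC1 against Ctrl. That of Pi16 to Dpp4 ran from -1.17 to -0.56 in Model against Ctrl and from -0.52 to -0.044 in M+NSPCC1 against Ctrl. In each of these 5 comparisons leaving out 1 library moved p across 0.05.

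The 4 libraries of a group limit what M+NSPCC1 against Model can show: the 95% interval for Pi16 runs from -0.14 to 1.13 on the log2 scale.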

Other observations

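Fap, the closest relative of Dpp4, came as 2 transcripts whose split differed between the groups although the gene's level overlapped. The second transcript was listed at 0 in all 4 Ctrl libraries. It measured 6.15, 7.84, 6.95 and 9.88 FPKM in M+NSPCC1 libraries 1 to 4, and 4.28, 7.03, 4.15 and 2.02 FPKM in Model libraries. It made up 63.4% to 94.6% of the gene's FPKM in M+NSPCC1 and 33.9% to 70.9% in Model libraries. The first transcript measured 0.56 to 4.01 FPKM in M+NSPCC1 and 2.88 to 4.64 FPKM in Model libraries, against 8.59 to 13.15 FPKM in Ctrl. The division of reads between transcripts of 1 gene is an estimate, and this pattern was noticed in the data and not tested. Pi16 showed no such shift among its 3 transcripts, and Dpp4 had only 1 in the tables.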
